A study of Mus musculus with 2 samples.

Results

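The aminoacyl-tRNA synthetase genes were examined in 2 long-read RNA libraries of adrenal glands from female B6CASTF1/J mice aged 2 months. Genes were taken by name, as protein-coding genes called by a single amino acid letter and the ending "ars", with or without 1, 2, a or b. This gave 36 genes. Eprs, which carries both the glutamyl and the prolyl enzyme, has an additional letter in its name and was included because the selection named it as an example. The resulting 37 genes stand among 16910 annotated nuclear genes with a read. They comprised 20 cytosolic and 17 mitochondrial enzymes and held 608 transcript models in replicate 1 and 262 in the other library. All 37 genes had reads in both libraries. Pars2, the mitochondrial prolyl enzyme, was the only one with fewer than 3 reads in a library, at 8 and 2 reads.

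Aminoacyl-tRNA synthetases attach each amino acid to its transfer RNA, the step that gives the genetic code its meaning. Most animals use separate nuclear genes for the cytosolic enzymes and for the enzymes of mitochondria, while Gars and Kars each serve both. Several cytosolic enzymes sit together in the multisynthetase complex, held by the scaffold proteins encoded by Aimp1, Aimp2 and Eef1e1. Transcripts of such genes are spliced at many introns, and a transcript that keeps an intron of its coding region usually encodes no full-length enzyme.

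The 2 libraries form 1 group and the labels give no treatment and no second condition, so no groups could be compared. Animals 3 and 4 are named as the sources, but each library description names animal 3. An RNA input of 1 µg is given for replicate 1 only. The libraries held 1277310 and 520388 reads, of which 1209457 and 502655 fell on annotated nuclear genes. Levels are counts per 1e6 of these reads (CPM), and 1 read is taken as 1 molecule without division by length. P-values compare the 2 libraries and cover counting error only, and the difference between libraries may be technical. All 16 markers of cortex, medulla, adipocytes and blood had reads in both libraries, so the tissue was a mixture. Summed cortex markers stood at 63522 and 82956 CPM and medulla markers at 11580 and 6677 CPM. The cortex sums differed mainly by Cyp21a1 (14022 and 28072.9 CPM) and Cyp11b1 (11523.4 and 15911.5 CPM). The other cortex markers lay closer together: Cyp11a1 (20228.1 and 19860.5 CPM), Star (9388 and 9876 CPM), Hsd3b1 (7253 and 8019 CPM) and Nr5a1 (1108 and 1216 CPM). In such bulk tissue, fewer cells of a type and less RNA per cell cannot be told apart.

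Synthetase genes were expressed above the middle of the range of coding genes. Their median level was 71.9 CPM in replicate 1 and 77.6 CPM in replicate 2. The 9553 protein-coding genes detected with 3 or more reads per library had medians of 34.7 and 35.8 CPM. Of the 37 genes, 28 lay above the coding median of 36.5 CPM of the mean of both libraries. This held for 18 of 20 cytosolic and 10 of 17 mitochondrial enzymes.

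Cytosolic enzymes supplied most of the synthetase reads, at 78.9% in replicate 1 and 76.2% in replicate 2. Over all its models Eprs had 593 CPM in replicate 1 and 221 CPM in replicate 2. This was the highest mean of the 37 genes and the widest gap between libraries in CPM. Of this, 496 and 19.9 CPM lay in the annotated model Eprs-204, described below. Outside that model Eprs had 96.7 and 201 CPM, below Aars in each library. Aars, the alanyl enzyme, had 418 and 368 CPM, and the 2 libraries lay close together. Mars, the methionyl enzyme, had 364 and 183 CPM. Nars, the asparaginyl enzyme, had 265 and 251 CPM, and Sars, the seryl enzyme, had 212 and 215 CPM. At the other end of the cytosolic set were Cars, the cysteinyl enzyme, with 32.2 and 39.8 CPM, and Iars, the isoleucyl enzyme, with 29.8 and 33.8 CPM. In both libraries Iars was the lowest cytosolic enzyme, although its product is part of the multisynthetase complex together with that of the far more abundant Mars.

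Among mitochondrial enzymes the phenylalanyl gene Fars2 led, with 155 and 143 CPM. The isoleucyl gene Iars2 had 146 and 113 CPM, so the mitochondrial isoleucyl gene was higher than the cytosolic Iars in each library. Cars2, the mitochondrial cysteinyl gene, had 93.4 and 113 CPM, likewise above its cytosolic counterpart Cars. Sars2, the mitochondrial seryl gene, had 9.09 and 7.96 CPM, far under the cytosolic Sars. Pars2 was lowest, at 6.61 and 3.98 CPM, where 3 counts correspond to 2.48 CPM in the first library and 5.97 CPM in the second. The lengths of the main annotated transcripts ran from 1574 bases (Yars2) to 11294 bases (Mars2), and the part of length in the order of levels was not tested.

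**Figure D1:**
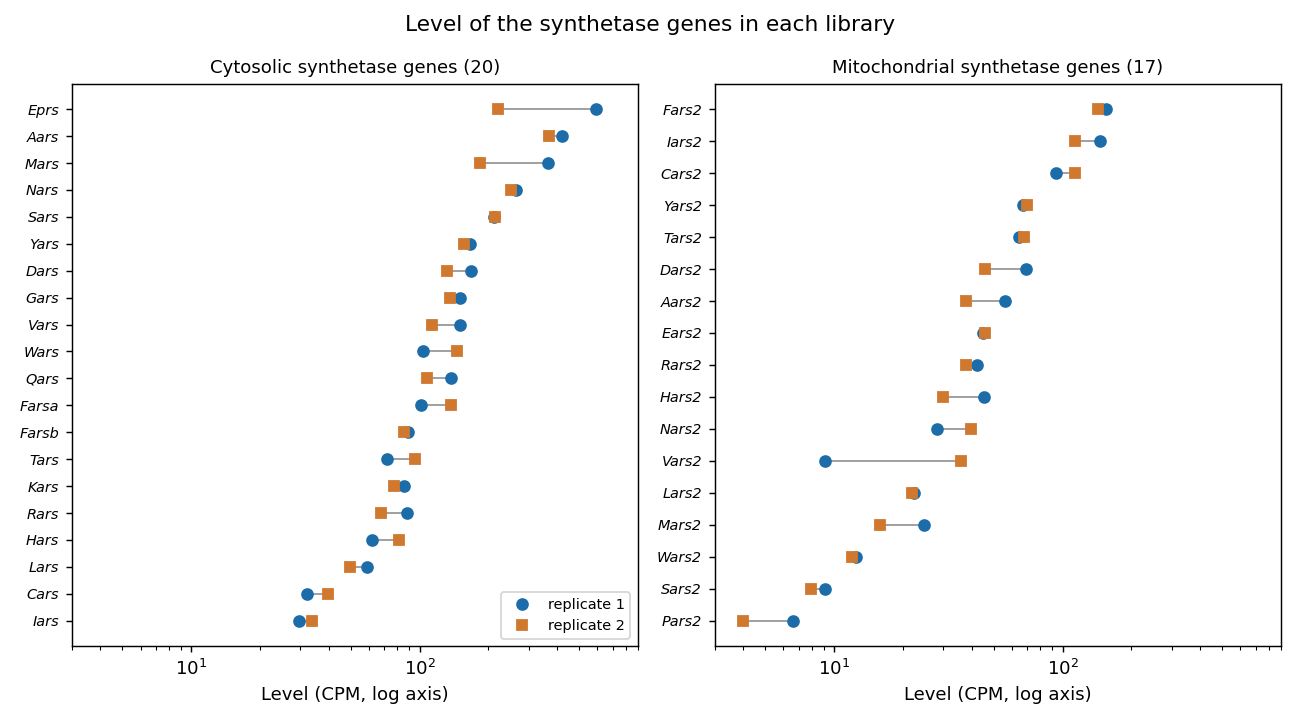
Level of each synthetase gene in CPM on a log axis, with circles for replicate 1 and squares for replicate 2, joined by a line; cytosolic genes are on the left and mitochondrial genes on the right, ordered by mean. Most pairs of points lie close together, and the widest gaps belong to Eprs (593 and 221 CPM), Mars (364 and 183 CPM) and Vars2 (9.09 and 35.8 CPM).

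Replicate 2 was compared with replicate 1 gene by gene with Fisher's exact test over 10170 genes. A call needed an adjusted p (Benjamini-Hochberg) below 0.05 together with a 2-fold difference. Over all genes tested 971 were called, or 9.55%, and 3.59% were called lower in replicate 2. All 37 synthetase genes were tested and 2 were called, Eprs and Vars2. The median log2 ratio was -0.09 for the synthetase genes and -0.06 for all genes tested, with 22 synthetase genes below 0 and 15 above.

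Eprs (ENSMUSG00000026615.14, chromosome 1, 185363044 to 185428360 of mm10, plus strand) had 717 reads in replicate 1 and 111 in replicate 2. It was lower in replicate 2 by a log2 ratio of -1.42 (SE 0.15, adjusted p = 4.29e-25, Fisher's exact test with Benjamini-Hochberg adjustment). This value rested on 1 annotated model, Eprs-204, described below, and had the opposite sign without it. Vars2, the mitochondrial valyl gene, had 11 reads in replicate 1 and 18 in replicate 2, and its level was higher in replicate 2 by a log2 ratio of 1.95 (SE 0.54, adjusted p = 0.00316 by the same test). Mars had 440 and 92 reads and a log2 ratio of -0.98 (SE 0.17, adjusted p = 7.96e-09), just short of the 2-fold limit. At any fold size 3 synthetase genes passed the adjusted p, against 17.9% of all genes tested. The remaining 34 genes gave no adjusted p under the threshold, which does not show that their levels were equal. Of the 5 medulla markers, Chgb (5350 and 2344 CPM), Chga (4409 and 2590 CPM) and Pnmt (399 and 195 CPM) were lower in replicate 2, whereas Th (1307 and 1371 CPM) and Dbh (116 and 177 CPM) were not. The part of tissue makeup in the synthetase differences was not tested.

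Other genes of aminoacylation were counted in the same test. Of 15 partner genes 14 were tested and 0 were called with Fisher's exact test, beside 9.55% of all genes, and so few genes do not set the list apart from that share. The scaffold genes of the multisynthetase complex stood at 41.3 and 55.7 CPM for Aimp1, 34.7 and 29.8 CPM for Aimp2, and 46.3 and 51.7 CPM for Eef1e1. Gatb, a subunit of the amidotransferase that makes mitochondrial glutaminyl-tRNA, had 123 and 57 reads, the second most of the partner genes after Lrrc47 with 142 and 60. Its partner subunits Qrsl1, with 6.61 and 3.98 CPM, and Gatc, with 1.65 and 9.95 CPM, were near the limit of detection. Of the 11 genes of the complex 1 was called, Eprs, a share near the 9.55% of all genes.

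A retained intron was recorded when an exon of a transcript model covered a whole intron of the gene's reference transcript, the annotated coding transcript with the most reads. Mars2 has no intron, which left 36 genes. Of their reads, 733 of 5101 (14.4%, exact 95% interval 13.4 to 15.4%) covered an intron in replicate 1 and 74 of 1770 (4.18%, 3.30 to 5.22%) in replicate 2. Over all coding genes the values were 4.15% and 3.93%. Without Eprs the synthetase shares were 2.99% (exact 95% interval 2.50 to 3.54%) and 3.80% (2.93 to 4.83%). Eprs was left out after its value was seen, whereas the share of all coding genes keeps its own extreme genes. The shares without Eprs therefore cannot place the synthetases below all coding genes. Without Eprs, cytosolic enzymes stood at 3.33% and 4.26% and mitochondrial enzymes at 1.90% and 2.41%.

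Introns covered by an internal exon, with a splice junction on each side, are fixed by the splice pattern itself. Such reads made up 1.84% and 2.60% of synthetase reads, and 1.36% and 1.75% of the reads of all coding genes. Both values for the synthetases were above those of all genes. The synthetase genes also had more introns, with a median of 15 against 8. Restricted to genes with at least 10 introns, the median retained share per gene by any exon was 1.41% and 2.56% over 23 synthetase genes, and 1.54% and 1.22% over 1668 genes. The synthetase median was thus lower in replicate 1 and higher in replicate 2.

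**Figure D2:**
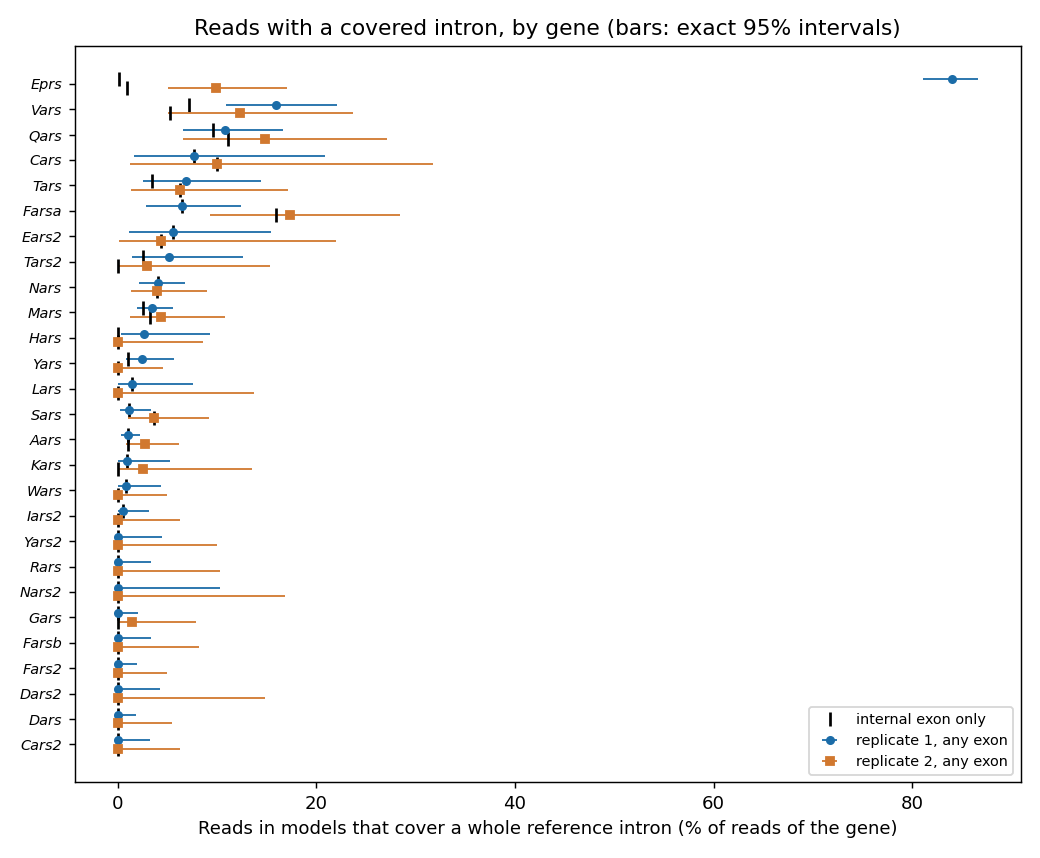
Share of each gene's reads in models that cover a whole reference intron, in percent, for the 27 synthetase genes with 20 or more reads per library; circles and squares are replicates 1 and 2, bars are exact 95% intervals and black ticks count internal exons only. Eprs stands apart in replicate 1 at 84.0% with its tick at 0.139%. Only Vars, at 15.9% and 12.3%, and Qars, at 10.8% and 14.8%, lie above 10% in both libraries.

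Eprs was the 1 synthetase gene of 27 tested whose retained share was called different between the libraries. Models covering an intron held 602 of its 717 reads in replicate 1 (84.0%, exact 95% interval 81.1 to 86.6%) and 11 of 111 in replicate 2 (9.91%, 5.05 to 17%). The intervals did not overlap, and the adjusted p was 1.34e-51 (Fisher's exact test, Benjamini-Hochberg over 4406 coding genes). The call needed a difference of 10 percentage points. In this test 1 of 27 synthetase genes was called, and 0.862% of all genes, of which 29 were lower and 9 higher in replicate 2. No gene of the 4406 had a larger fall than Eprs, and only 4 had a larger retained share in replicate 1. Counting internal exons alone, Eprs had 1 such read in each library, 0.139% and 0.901%, and was not called.

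The retained reads of Eprs belonged almost wholly to Eprs-204, a model that the annotation types as a retained intron. Eprs-204 had 600 reads in replicate 1 and 10 in replicate 2, or 496 and 19.9 CPM. Eprs-201, the 32-exon coding transcript, had 28 and 84 reads, or 23.2 and 167 CPM. The order of the models was therefore opposite in the libraries. Eprs-204 shares all of its 19 introns with the first 19 of Eprs-201. It differs only in its last exon (chr1:185407491-185410199), which runs through exon 20, through intron 20 of 2431 bases, and 15 bases into exon 21. No splice junction lies beyond the retained intron, so the chain of introns of Eprs-204 is also that of a molecule which stops anywhere in exon 20 or beyond it. The deposited counts are per model and hold no end for each read.

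Splicing along the gene showed the same break. In replicate 1, introns 1 to 19 of Eprs-201 were spliced in 669 to 698 reads each, and introns 20 to 31 in 36 to 42 reads. In replicate 2 the counts were 100 to 107 for introns 1 to 19 and 96 for each intron from 20 on. Scaled to depth, intron 19 was spliced at 553 and 211 CPM, and intron 20 at 34.7 and 191 CPM. The upstream part of the gene was thus higher in replicate 1 and the downstream part higher in replicate 2. The first intron was spliced 16.5 times as often as the last in replicate 1 and 1.04 times as often in replicate 2. The median of this ratio was 0.913 and 0.970 over the same 27 synthetase genes, and 0.938 and 0.956 over 4222 genes. In replicate 1, 2.58% of genes exceeded a ratio of 1.5, Eprs alone among the synthetases. Only Eif5b, a translation initiation factor gene named after its value was seen, had a higher ratio than Eprs, at 18.3 and 1.64. Over all coding genes, models that match only the first part of an annotated chain of introns held 1.75% of reads in replicate 1 and 0.659% in replicate 2. The part of this difference between the libraries in the Eprs ratios was not tested.

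**Figure D3:**
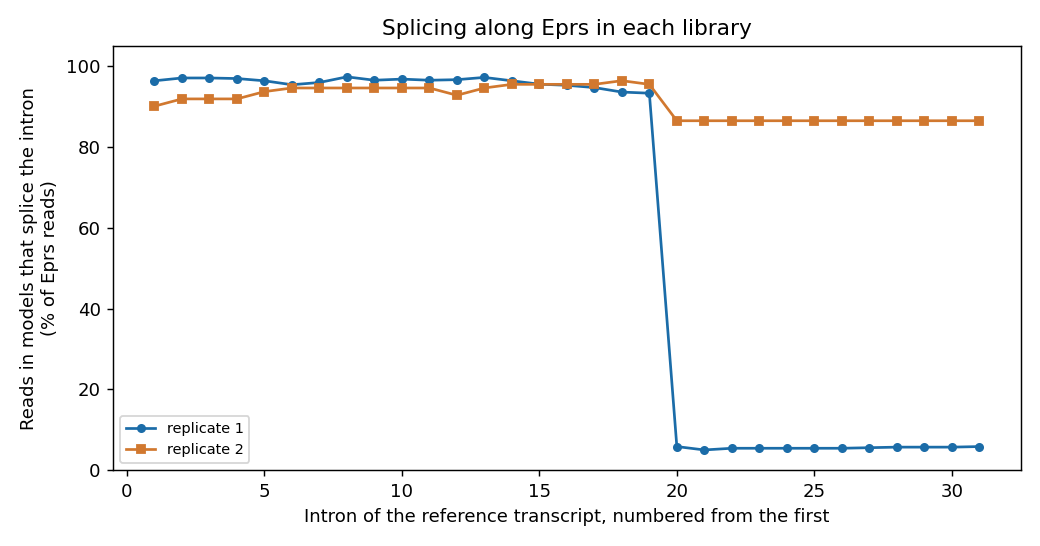
Share of Eprs reads in models that splice each of the 31 introns of Eprs-201, numbered from the start of the gene, in replicate 1 (circles) and replicate 2 (squares). The lines run together up to intron 19 (93.3% and 95.5%), then fall to 5.86% in replicate 1 and 86.5% in replicate 2.

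Some unannotated models of Eprs, separate from Eprs-204, also had intron 19 as their last intron. Their ends are deposited per model, not per read, and do not tell where the reads of Eprs-204 end. In replicate 1, 23 further models with 33 reads had intron 19 as their last intron, and 22 of them with 32 reads ended inside exon 20. Of these, 16 models with 19 reads ended at position 104 of the exon, and 6 models with 13 reads ended at position 8. In replicate 2, 1 such model with 1 read was found, ending at position 8.

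Reads of Eprs outside Eprs-204 numbered 117 and 101. With Eprs-204 left out, the log2 ratio was 1.05, opposite in sign to the value over all models. The model was left out after its 600 and 10 reads were seen, which by itself moves the rest towards replicate 2. This ratio is therefore no test of the level of the gene.

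Outside Eprs, retained introns were spread thinly. Both libraries had 0 covering reads in 12 of the 36 spliced synthetase genes, and 17 genes had such reads in both libraries. Dars, the aspartyl enzyme, had 0 of 203 reads in replicate 1 and 0 of 66 in replicate 2, with upper 95% limits of 1.80% and 5.44%. Fars2 had 0 of 187 and 0 of 72 reads, with upper limits of 1.95% and 4.99%. Yars, the tyrosyl enzyme, had 5 of 201 and 0 of 79 reads.

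Vars, the cytosolic valyl enzyme, and Qars, the glutaminyl enzyme, were the 2 synthetase genes of these 27 with at least 10% retained reads in both libraries. Vars had 29 of 182 reads in replicate 1 (15.9%, exact 95% interval 10.9 to 22.1%) and 7 of 57 in replicate 2 (12.3%, 5.08 to 23.7%). Qars had 18 of 166 reads (10.8%, 6.55 to 16.6%) and 8 of 54 (14.8%, 6.62 to 27.1%). The intervals of the libraries overlapped for both genes. Among the 4406 coding genes 7.22% reached 10% in both libraries, so 2 of 27 synthetase genes is near the share of all genes. Counting internal exons alone, Vars had 13 and 3 reads (7.14% and 5.26%) and Qars had 16 and 6 (9.64% and 11.1%). By that count neither gene reached 10% in both libraries. The introns of Vars and Qars are short, with medians of 129 and 120 bases. The covering reads were shared among 17 of 29 introns in Vars and 18 of 23 in Qars. No intron of Vars was covered by more than 8 reads in replicate 1 or 2 reads in replicate 2.

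Farsa, the alpha chain of the cytosolic phenylalanyl enzyme, had 8 of 123 retained reads in replicate 1 (6.50%) and 12 of 69 in replicate 2 (17.4%). This difference of 10.9 percentage points was not called (adjusted p = 0.66, Fisher's exact test with Benjamini-Hochberg adjustment). Farsb, which encodes the beta chain of the same enzyme, had 0 of 108 and 0 of 43 reads. The difference between the subunit genes was not tested.

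Single introns were then followed. Of 590 reference introns 568 had at least 20 covering or splicing reads over both libraries. Of these, 458 were covered by no read in either library and 41 were covered in both. No synthetase intron reached 10% in both libraries, against 0.921% of 64358 introns over all coding genes. Short introns of at most 300 bases were covered more than long ones. Without Eprs, the mean share was 0.970% and 0.806% over 151 short synthetase introns, and 0.209% and 0.208% over 386 longer introns. With Eprs included, the means were 0.952% and 0.790% for short synthetase introns and 0.421% and 0.219% for longer ones. Over all coding genes the means were 1.92% and 1.75% for short introns and 0.447% and 0.446% for long ones. The synthetase means were lower in either length class with or without Eprs, by little for long introns in replicate 1 when Eprs was included. Over all coding genes the median share was 0 in either class in replicate 1, so the means rest on the introns that were covered. No interval or test was set on the means, so they do not place synthetase introns below those of all coding genes.

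Intron 20 of Eprs, at 93.5% and 9.43%, was covered by an end exon alone, with 0 reads in internal exons in each library. Of the other synthetase introns, intron 22 of Qars had the most covering reads in replicate 1. It has 73 bases and was covered by 13 of 166 reads in replicate 1 (7.83%, exact 95% interval 4.24 to 13%) and 4 of 54 in replicate 2 (7.41%, 2.06 to 17.9%). An internal exon carried 8 and 4 of these reads. The shares of the libraries lay close together. The annotated models Qars-205, Qars-213 and Qars-218 also keep this intron. Intron 9 of Farsa, of 101 bases, was covered by 5 of 111 reads (4.50%) and 5 of 63 reads (7.94%), and the annotated model Farsa-203 keeps it. Neither length is a multiple of 3. Both are printed 5′ to 3′ with 20 bases of the exons on each side and with the first and last 2 bases of the intron in capitals, as examples of short coding introns that were covered in both libraries and are kept in an annotated model. Positions are chr9:108515014-108515126 and chr8:84867629-84867769 of mm10, both on the plus strand, and the bases come from the GENCODE M21 transcripts Qars-205 and Farsa-203:
Qars intron 22: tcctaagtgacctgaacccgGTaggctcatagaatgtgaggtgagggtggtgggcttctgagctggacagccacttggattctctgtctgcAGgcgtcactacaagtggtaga
Farsa intron 9: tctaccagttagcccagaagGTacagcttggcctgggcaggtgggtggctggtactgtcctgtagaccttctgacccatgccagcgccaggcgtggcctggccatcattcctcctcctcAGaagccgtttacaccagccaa

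Both introns begin with GT and end with AG, the usual splice dinucleotides. Intron 15 of Qars, of 290 bases, was covered by 9 reads in replicate 1 and 2 in replicate 2 (5.49% and 3.70%), all in internal exons, and no annotated model keeps it. Intron 4 of Ears2, the mitochondrial glutamyl gene, was covered by 3 of 50 and 1 of 23 reads (6% and 4.35%), and annotated models of this gene keep it. Cars intron 11 was covered by 2 and 1 reads, at 5.88% and 5%. In Rars2, the mitochondrial arginyl gene, intron 14 had 1 and 2 covering reads and intron 19 had 5 and 0. Intron 5 of Hars2, the mitochondrial histidyl gene, had 4 and 1, and intron 25 of Vars2 had 1 in each library. With so few reads, no order among these introns can be read.

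The annotated type "retained intron" and a retained intron in the reads were not the same set. In replicate 1, 630 synthetase reads fell on models of that type, and in replicate 2, 18 did. The intron of the reference lay in an end exon alone for 600 and 10 of these, the reads of Eprs-204, and in an internal exon for 13 and 7. Over all coding genes 16.4% and 24.3% of reads of this type had an internal exon over a reference intron. A further 55.4% and 56.5% covered no whole reference intron.

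The reference transcript is by definition the annotated coding transcript with the most reads, so its top rank is partly fixed in advance. It was the most abundant of all models in 35 of the 37 genes, the exceptions being Eprs and Cars2. It held a median of 78.4% and 82.6% of reads over the 27 well covered synthetase genes, and of 75% and 82.1% over all coding genes. Dars kept 95.6% and 97.0% of its reads on Dars-201. By class, 78.2% and 80.7% of synthetase reads matched an annotated chain of introns, and 12.5% and 7.09% were incomplete matches. A further 5.67% and 7.65% were new chains of annotated splice sites, 3.16% and 3.99% were classed with a new splice site, and 0.487% and 0.562% were genomic.

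Alternative splice junctions were sought in the top models of each gene and in unannotated models. Those with at least 3 reads of the model in both libraries were found in 10 genes, and less abundant annotated models were not searched. Their shares had overlapping intervals in the libraries. Shares are of the reads that splice either the alternative junction or the reference intron it competes with. For Wars, where no reference intron competes, they are of the reads that splice the junction or cover it with an exon. In 3 of these 10 genes the alternative was an acceptor site moved by 3 bases, which adds or removes 1 codon. Cars2 spliced intron 6 to the later acceptor in 72 of 87 reads in replicate 1 (82.8%, exact 95% interval 73.2 to 90.0%) and 29 of 40 in replicate 2 (72.5%, 56.1 to 85.4%). The most abundant Cars2 chain, with 60 and 23 reads, was therefore absent from the annotation. Its junction (chr8:11530425-11537271, minus strand) occurs in shorter annotated models, and the same chain was classed as incomplete in replicate 1 and as new in replicate 2. The start of exon 7 of Cars2-201 is shown (chr8:11530398-11530427, mm10, minus strand, GENCODE M21), with the 3 bases that the main form lacks in capitals:
Cars2 exon 7 start: CAGgtgactctgacaagcggcacagcagcg

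In Nars the earlier acceptor of intron 1, used by the reference Nars-213, and the later one, used by Nars-201, were both frequent. The later site had 118 of 299 reads in replicate 1 (39.5%, 33.9 to 45.3%) and 55 of 121 in replicate 2 (45.5%, 36.4 to 54.8%). In Farsa the later acceptor of intron 9, the intron printed above, had 3 of 109 and 3 of 61 reads (2.75% and 4.92%). The site is visible in its sequence, where aag follows the AG in capitals.

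Aars was read from 2 first exons of different length. The unannotated form (129 and 47 reads of the complete chain) used a donor 355 bases before that of Aars-201, outside the coding region. This junction (chr8:111033909-111036908, plus strand) had 133 of 429 reads in replicate 1 (31.0%, 26.7 to 35.6%) and 48 of 159 in replicate 2 (30.2%, 23.2 to 38.0%). In Wars, the tryptophanyl enzyme, an unannotated model had a junction outside the coding region with 9 of 123 and 7 of 73 reads (7.32% and 9.59%).

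**Figure D4:**
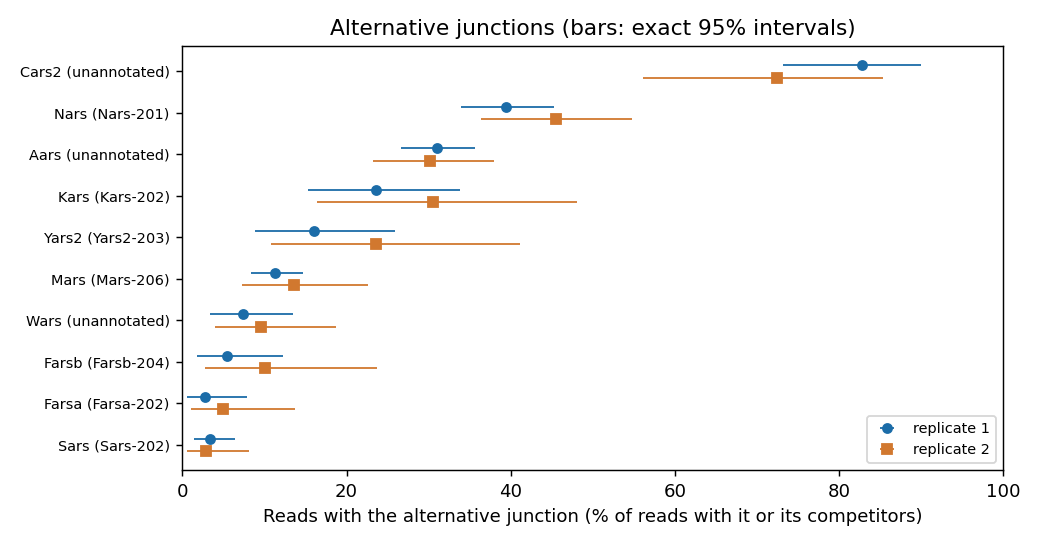
Share of reads with each alternative junction among reads with it or the competing form, in percent, for 10 synthetase genes; circles and squares are replicates 1 and 2, bars are exact 95% intervals, and the model named holds the junction. The order runs from Cars2 (82.8% and 72.5%) down to Sars (3.31% and 2.86%), and the intervals of the 2 libraries overlap in every gene.

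Kars encodes the cytosolic and the mitochondrial lysyl enzyme from 1 gene, by leaving out or including an additional exon near its start. Kars-201, without the exon, had 65 and 25 reads. Kars-202, which includes it, had 12 and 6 reads. Kars-203, which shares the junction that leaves the exon, had 7 and 3 reads. The junction from the exon to the next exon had 21 of 89 reads in replicate 1 (23.6%, 15.2 to 33.8%) and 11 of 36 in replicate 2 (30.6%, 16.3 to 48.1%). The form without the exon was the more frequent in both libraries. The coding part of the exon in Kars-202 is shown because it gives this form its own start (chr8:112008207-112008352, mm10, minus strand, GENCODE M21), with the start codon in capitals:
Kars additional exon: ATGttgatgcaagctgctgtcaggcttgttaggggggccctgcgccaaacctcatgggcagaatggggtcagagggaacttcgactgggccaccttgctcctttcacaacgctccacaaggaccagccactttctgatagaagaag

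Mars had a short exon of 24 bases within intron 19 in Mars-206, an annotated coding model. Its junction had 48 of 427 reads in replicate 1 (11.2%, 8.41 to 14.6%) and 12 of 88 in replicate 2 (13.6%, 7.25 to 22.6%). The exon keeps the reading frame, since its length is a multiple of 3 (chr10:127296717-127296740, mm10, minus strand, GENCODE M21):
Mars short exon: ctagaagagtccttggagttaaag

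Intron 19 of Mars was also the intron of this gene with the most covering reads, 10 in replicate 1 and 3 in replicate 2 (2.57% and 3.80%). Models that the annotation types as targets of nonsense-mediated decay, which removes transcripts with an early stop, were seen in Yars2 and Farsb. Yars2-203, with an acceptor 35 bases later, had its junction in 13 of 81 and 8 of 34 reads (16.0% and 23.5%). Farsb-204, with an acceptor 98 bases later, had its junction in 5 of 92 and 4 of 40 reads (5.43% and 10%). Over all synthetase genes this type held 17 of 5131 reads in replicate 1 and 9 of 1778 in replicate 2. In Vars, an incomplete chain that lacks 1 intron held 38 and 12 reads (20.9% and 21.1%), next to 69 and 29 for Vars-201.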

How the data were processed

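The authors deposited, per library, whole-number read counts per transcript model, not normalised, with the matching models on mm10 and GENCODE M21, per the file headers and readme files. TALON is named in these files as the source of unannotated models. The sequencing platform is not given in the sources used here, nor is the aligner. All 141862 annotated models had the exons of M21. The members and lists were chosen with earlier results of these data known.

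Counts were summed per gene and scaled to CPM over annotated nuclear genes. Log2 ratios used 0.5 added reads. Two-sided Fisher's exact tests (scipy 1.17.1) with Benjamini-Hochberg adjustment covered genes with 10 or more reads in total for levels, and coding genes with 20 or more reads per library for retained shares, with calls as given in the text. Confidence limits (95%) are by the exact Clopper-Pearson method and, like the floor of 3 counts, cover counting error only. Where both libraries are set in 1 number it is the mean. Unannotated models were matched between libraries by their introns. The tests were checked on simulated data that held counting error alone. That check does not show how often variation between libraries leads to a call. Alternatives covered scaling (edgeR 4.0.16, DESeq2 1.42.0), read minimums, classes of model and definitions of a retained intron. Named genes were all members for level, members with 20 or more reads per library for transcripts, and all partners. Named introns were the 10 with the highest mean retained share among those with at least 10 covering or splicing reads in each library. Named models were the top models of each gene and new models with at least 3 reads in both libraries. Values set without Eprs or Eprs-204, the junction shares and the comparison of first and last introns were added after the values were seen. Reads of overlapping genes on the same strand, which 9 members have, could be split differently. The sequence of 1 exon is not reported here.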

Additional observations from a re-analysis of the deposited data

How the results depend on the processing

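No paired analysis was possible because the 2 libraries form 1 group; for the same reason no test between libraries could leave one out. Depth limits the intron shares, since most rest on fewer than 10 covering reads. The synthetase calls for level stayed at 2 or 3 under every scaling, read minimum and class of model, Mars being added with annotated models alone (log2 -1.04) or without the genomic class (-1.02). The log2 ratio of Eprs turned from -1.42 to 1.05 without Eprs-204. Over all genes 606 of 971 calls were higher in replicate 2, 724 of 994 with TMM factors and 709 of 985 with DESeq2 factors. The median log2 ratio of all genes moved from -0.06 to 0.03 with TMM, and the synthetase median from -0.09 to 0.01. The median level of synthetase genes was 74.8 CPM, 59.4 CPM with annotated models alone, and 71.9 to 77.6 CPM with 1 library left out. Calls of a different retained share over all genes fell from 38 to 20 without the genomic class, where fewer genes were tested, and to 3 with internal exons alone. Among synthetases the 1 call was lost (0 calls) with internal exons alone, where Eprs differed by 0.76 points instead of -74.1, and without Eprs (0 calls). The retained share of synthetase reads, 9.28% as a mean, was 4.18 to 14.4% with 1 library left out, 6.68% by annotated type, 2.22% by internal exons, 12.2% with introns of any coding transcript and 3.39% without Eprs. Introns reaching 10% numbered 0 in both libraries together and 1 to 6 with 1 library left out. The cause of these differences was not tested beyond the counts given.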
